A study of Mus musculus with 18 samples.

Results

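The genes described here encode the nuclear subunits of the mitochondrial respiratory chain and ATP synthase, with a family of complex I assembly factors that shares their naming. They were chosen by symbol, as genes starting with Nduf, Uqcr, Atp5 or Cox4 to Cox8, or named Sdha, Sdhb, Sdhc or Sdhd, and the rule uses no measured value. The rule found 90 genes of 18194 with a probe set of a single gene symbol. They comprised 36 complex I genes, 8 complex I assembly factors, 4 genes of complex II, 8 of complex III, 17 of complex IV and 17 of ATP synthase. Of these, 85 had a signal above a minimum of 109 on at least 5 arrays and were tested. Cox6b2, Cox7a1, Cox7b2, Cox8b and Ndufb4 did not exceed it on 5 arrays and were not tested. Ndufa4 is counted with complex I by its name, and Cox7b and Ndufs6 are not analysed here. RefSeq names pseudogenes of 10 members, among them Atp5k, Atp5l, Cox7c and Ndufab1, whose probe sets could also read near-identical copies.

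Each of 18 independent mice gave total RNA for 1 Affymetrix mouse 430 array. The 5 control mice are LckCre animals in the design text and wild type in the sample labels, and which holds was not settled. The other groups were 5 CD4Cre-Ctnnbex3 mice sampled ahead of T-cell transformation (before transformation) and 8 with lymphoma, taken as thymocytes or tumour masses. In CD4Cre-Ctnnbex3 mice the Cd4 regulatory sequences drive Cre in thymocytes, and Cre removes the part of the beta-catenin gene Ctnnb1 that marks the protein for degradation. The sources used here give no ages. The comparison of mice before transformation with control mice asks how the transgenic thymus differs before a tumour forms, and the comparisons with lymphomas ask what differs after transformation.

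The respiratory chain passes electrons from NADH through complex I, or from succinate through complex II, to ubiquinone, then through complex III and cytochrome c to complex IV, which reduces oxygen. Complexes I, III and IV pump protons across the inner mitochondrial membrane, and ATP synthase uses the resulting gradient to make ATP. Most subunits are encoded in the nucleus and a small core set in mitochondrial DNA, and dedicated assembly factors join the parts. In thymocytes and T cells the demand on this system shifts with quiescence, growth and activation.

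Promoter sequences are shown for 6 members whose values are described in most detail: the 3 genes of the proton-carrying c subunit, another ATP synthase subunit, a complex II subunit and an assembly factor. Each is the 250 bases before the start of the gene in RefSeq, build GRCm38.p6, written 5′ to 3′ on the gene's strand, with motif matches in capitals. The positions are chr11:96075632-96075881 (minus strand) for Atp5g1, chr15:102671048-102671297 (minus) for Atp5g2, chr2:73911327-73911576 (minus) for Atp5g3, chr11:115419920-115420169 (minus) for Atp5h, chr4:140961021-140961270 (plus) for Sdhb and chr4:24897833-24898082 (plus) for Ndufaf4.
Atp5g1: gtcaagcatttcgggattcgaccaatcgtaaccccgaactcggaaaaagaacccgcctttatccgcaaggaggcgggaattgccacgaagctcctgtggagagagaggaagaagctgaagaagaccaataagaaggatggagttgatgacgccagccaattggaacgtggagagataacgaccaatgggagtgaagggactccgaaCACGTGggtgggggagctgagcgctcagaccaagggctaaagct
Atp5g2: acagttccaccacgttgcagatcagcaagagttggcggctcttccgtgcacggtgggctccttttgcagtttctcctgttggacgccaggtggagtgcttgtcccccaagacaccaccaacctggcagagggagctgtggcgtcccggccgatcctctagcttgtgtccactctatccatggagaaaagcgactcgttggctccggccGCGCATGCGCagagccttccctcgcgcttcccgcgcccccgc
Atp5g3: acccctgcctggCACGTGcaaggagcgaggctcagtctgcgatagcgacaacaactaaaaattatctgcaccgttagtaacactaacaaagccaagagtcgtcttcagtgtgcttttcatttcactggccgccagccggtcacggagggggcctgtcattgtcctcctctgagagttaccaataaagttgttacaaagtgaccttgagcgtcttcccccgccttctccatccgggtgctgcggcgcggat
Atp5h: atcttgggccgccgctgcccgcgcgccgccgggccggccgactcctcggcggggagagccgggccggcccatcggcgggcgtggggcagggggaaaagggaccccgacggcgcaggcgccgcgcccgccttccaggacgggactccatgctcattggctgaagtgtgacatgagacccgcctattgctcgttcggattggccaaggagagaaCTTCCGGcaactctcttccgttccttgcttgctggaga
Sdhb: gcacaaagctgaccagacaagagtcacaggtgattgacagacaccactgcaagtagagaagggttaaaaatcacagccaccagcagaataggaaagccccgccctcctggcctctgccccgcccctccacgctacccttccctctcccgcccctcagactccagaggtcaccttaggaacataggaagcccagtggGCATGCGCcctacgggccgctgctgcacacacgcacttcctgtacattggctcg
Ndufaf4: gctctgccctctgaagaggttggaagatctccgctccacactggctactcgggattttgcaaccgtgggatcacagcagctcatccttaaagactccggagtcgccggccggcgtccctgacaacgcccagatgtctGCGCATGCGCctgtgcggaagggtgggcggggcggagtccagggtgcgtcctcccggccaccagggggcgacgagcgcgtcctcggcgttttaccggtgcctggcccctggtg
The capitals mark an E-box (CACGTG) in Atp5g1 and Atp5g3, the NRF1 palindrome in Atp5g2 and Ndufaf4, its shorter form GCATGCGC in Sdhb, and the ETS motif CCGGAAG, on the opposite strand, in Atp5h. E-boxes of this sequence are bound by Myc and related factors, NRF1 sites by nuclear respiratory factor 1, and ETS motifs by factors that include GABP. Matches were counted by gene over both strands, and a gene with several promoter windows counted if any of them held the motif. The NRF1 palindrome was found in 5.41% of the 74 members with a promoter entry and in 0.877% of all 27025 genes with one. The shorter form, which lies within it, was found in 10.8% and 2.56%. The ETS motif was found in 18.9% against 7.83%, the E-box in 8.11% against 6.86%, the CRE motif TGACGTCA in 4.05% against 1.77% and the YY1 motif AAGATGG in 1.35% against 5.18%. These letters describe the windows and do not show that a factor binds there.

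Within each group most members, though not those of every complex, were higher in the mice that the labels number 1 and 2 than in those numbered 3 and up. Of the 85 tested members, 72 (84.7%) were higher in mice 1 and 2 among the controls, 69 (81.2%) before transformation and 78 (91.8%) among the lymphomas. The same share over all 14019 genes tested was 55.5%, 43.5% and 47.6%. The median difference of the members was 0.17 in controls, 0.27 before transformation and 0.45 in lymphomas on the log2 scale, against 0.03, -0.07 and -0.03 over all genes. The direction held after quantile normalization, with 72.9%, 81.2% and 72.9% of the members higher, and with arrays centred on their medians, with 83.5%, 90.6% and 96.5%. In lymphomas 1 and 2 the mean log2 signal of the tested complex I genes was 10.80 and 10.85, and in the other 6 lymphomas it lay between 10.27 and 10.41. The 8 complex III genes averaged 11.34 and 11.36 in lymphomas 1 and 2 and 10.66 to 11.07 in the others. Complex IV was less uniform, with 8 of 13 genes higher in mice 1 and 2 among controls, 8 before transformation and 10 among lymphomas. Complex II had 2 of 4 higher among controls and before transformation, with medians of -0.01 and 0.04, and 4 of 4 among lymphomas. The labels do not say what the numbers stand for, so the counts over all members are also given with this split as a block and within each set of mice, and the main counts of a complex or list where the split bears on them.

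**Figure D1:**
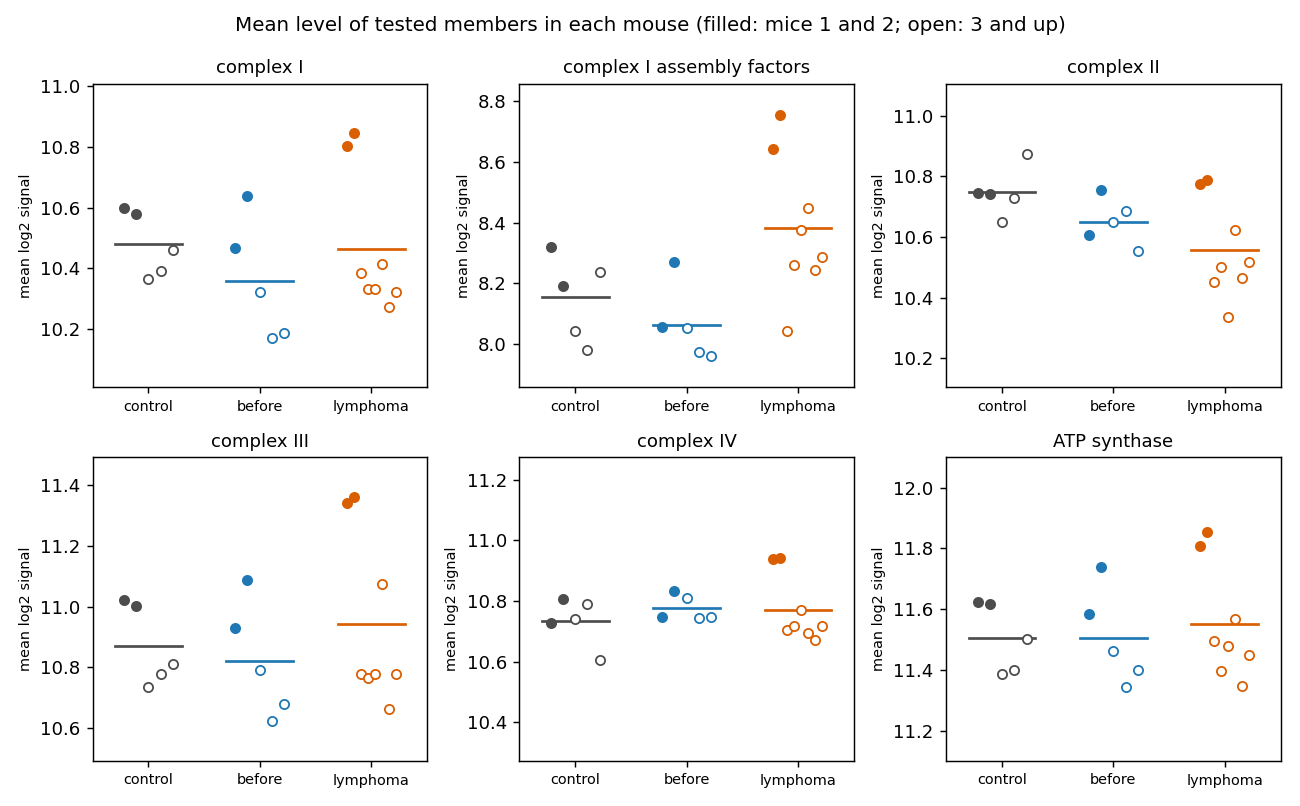
Mean log2 signal of the tested members of each complex, with 1 point per mouse, in control mice, CD4Cre-Ctnnbex3 mice before transformation (before) and lymphomas; filled points are mice numbered 1 and 2, open points are mice numbered 3 and up, and lines are group means. Vertical axes do not start at 0 and cover the same span in each panel, at different levels; lymphomas 1 and 2 lie above the other lymphomas in every panel.

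Between control mice and mice before transformation few members changed. Atp5h and Atp5l rose and Sdhb fell, and the other 82 tested members did not pass the test, which was limma's with Benjamini-Hochberg adjustment over all genes tested and a threshold of 0.05. This gave 2.35% of the members higher and 1.18% lower, where 4.43% and 6.24% of all genes tested passed. The median difference was -0.07, against -0.02 for all genes. With the number set as a block 3 members passed as higher and 6 as lower, where 5.64% and 8.52% of all genes did. These counts were 2 and 0 in mice 1 and 2 alone (3.06% and 4.46% of all genes), and 1 and 5 in mice 3 and up alone (3.99% and 5.11%). They were 1 and 1 under quantile normalization (4.78% and 5.85%) and 1 and 0 with centring (3.74% and 4.84%). The groups did not overlap for 2 members that were higher, Atp5h and Cox7c, and 1 that was lower, Sdhb, where this held for 4.36% and 6.28% of all genes.

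In lymphomas compared with mice before transformation, 13 members rose and 8 fell. These are 15.3% and 9.41% of the tested members, against 16.1% and 18.5% of all genes tested, so the share that rose was near the background. Without the assembly factors, 8 of 77 rose and 6 fell. With the number set as a block 29 members (34.1%, against 21.2% of all genes) passed as higher and 9 (10.6%, against 24.8%) as lower. Within mice 1 and 2 the counts were 16 higher and 2 lower (10% and 8.41% of all genes), and within mice 3 and up 20 higher and 13 lower (18.7% and 23.1%). Scaling moved the split: quantile normalization gave 30 higher and 6 lower (22.8% and 15.9% of all genes), and centring each array on its median gave 12 higher and 3 lower (19.3% and 13.7%). The groups did not overlap for 4 members that were higher and 4 that were lower, against 6.76% and 8.88% of all genes. The median difference of the members was 0.08 in the deposited scaling, 0.21 after quantile normalization and 0.17 after centring, while the median of all genes was -0.03, 0.06 and 0.05.

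In lymphomas compared with control mice, 14 members rose (16.5%, against 17.4% of all genes) and 8 fell (9.41%, against 22.7%). With the number set as a block these counts were 22 and 11 (20.5% and 25.1% of all genes). Among mice 1 and 2 alone 31 rose and 2 fell (13.8% and 14.7%), and among mice 3 and up alone 15 rose and 16 fell (20.8% and 21.1%). Quantile normalization gave 21 higher and 3 lower (25.7% and 18.3%), and centring gave 12 and 2 (22% and 17.1%). The groups did not overlap for 6 members that were higher and 3 that were lower, against 8.31% and 12% of all genes. Quantile normalization also moved the median of all genes from -0.03 to 0.08, so the member medians of -0.02 and 0.14 in these scalings stand beside that shift. Both lymphoma comparisons use the same 8 lymphomas. In both, 11 members were called higher and 4 lower, and 56 of the 85 tested members passed in no comparison. The same overlap was not counted over all genes, so these counts cannot be read as high or low.

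**Figure D2:**
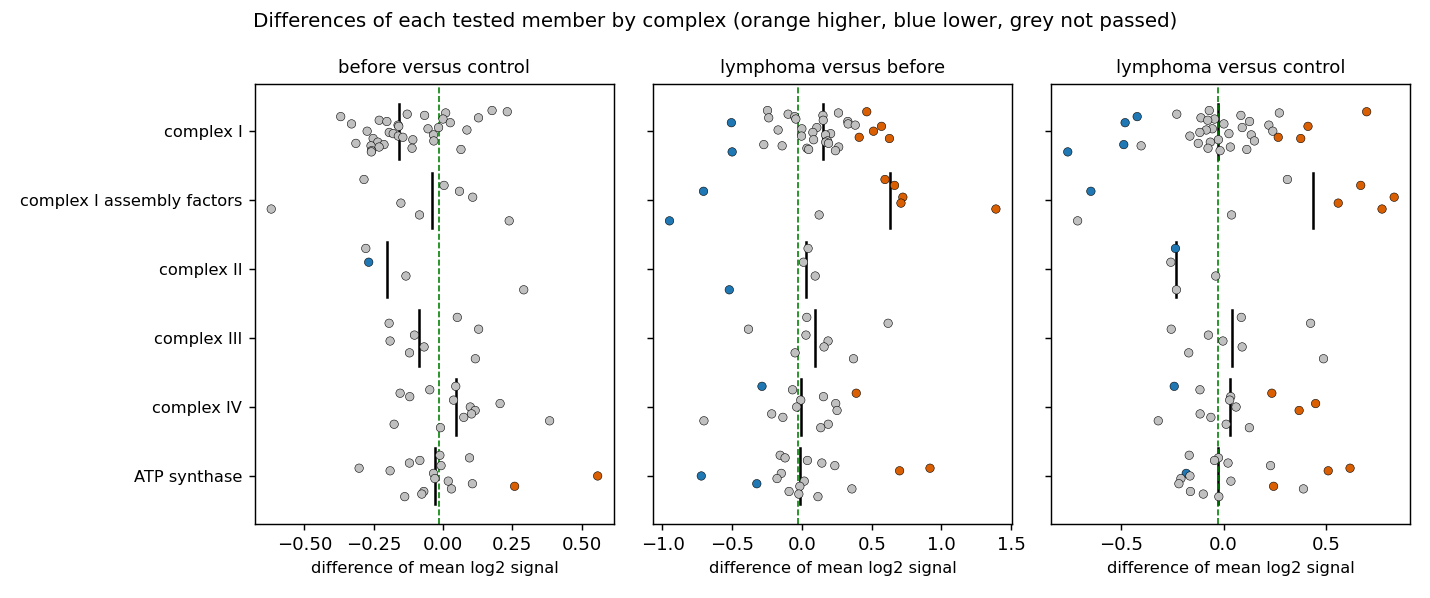
Difference of mean log2 signal for each tested member, 1 point per gene, by complex (rows) and comparison (columns); black bars are the median of each complex and the dashed green line is the median of all genes tested. Orange and blue points passed as higher and lower; most members are grey, and the point at 1.39 among the assembly factors is Ndufaf6, whose signals before transformation lie at or near the floor.

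Marker genes of other cells and array controls also differed between the groups. The summed signal of 6 granulocyte markers was 2768 to 9176 in control mice and 1196 to 1907 before transformation, with 4 of 6 lower, and 1493 to 3904 in lymphomas. In the same comparison 3 of 10 thymocyte markers were lower and 1 was higher. The summed signal of 10 thymocyte markers was 14787 to 23334 in lymphomas, 50882 to 55206 in controls and 41149 to 61511 before transformation, and the pre-T-cell receptor gene Ptcra lay at the floor in every lymphoma. The summed signal of 8 macrophage markers was 6862 to 21655 in lymphomas, against 2827 to 4992 and 1512 to 4828. Not all 8 rose: 6 passed as higher and 1 as lower against control mice, and 5 as higher and 0 as lower against mice before transformation. Lyz2, at 2235 to 9499 in lymphomas, weighs most in the sum, and Csf1r had 710 to 1145 in lymphomas and 1002 to 1869 in control mice. For 7 fibroblast and vessel markers the summed signal was 1112 to 6596, against 919 to 1183 and 1050 to 1994. Not all 7 rose: of 5 tested, 4 passed as higher against control mice and 2 against mice before transformation, with 0 lower in both. The vessel gene Pecam1 had 240 to 524 in lymphomas and 359 to 531 in control mice, and Col3a1 had 150 to 2295 and 94.1 to 158. The ranges of 14 muscle markers, from a tissue rich in respiratory chain, overlapped at 1433 to 2017, 1763 to 2144 and 1614 to 2207. The mean log2 signal of 18 spike-in probe sets was 9.95 to 10.68 in lymphomas, 10.75 to 11 in controls and 10.74 to 11.24 before transformation. The part of these differences in the results was not tested. In total RNA from thymocytes or tumour masses, fewer cells of a type and less RNA per cell cannot be told apart.

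Complex I, NADH dehydrogenase, is the entry point for electrons from NADH and the largest of the complexes. None of its 35 tested genes passed between control mice and mice before transformation, where 4.43% of all genes passed as higher and 6.24% as lower. Over all 14019 genes tested 7441 differences were negative, with a median of -0.02. For complex I 27 of 35 differences were negative, with a median of -0.16. That median was 0.02 in mice 1 and 2 alone and -0.23 in mice 3 and up alone, where 4 genes passed as lower (5.11% of all genes did). In lymphomas against mice before transformation the median was 0.15, with 5 genes higher (14.3%, against 16.1% of all genes) and 2 lower (5.71%, against 18.5%). With the number set as a block 16 passed as higher (45.7%, against 21.2%) and 2 as lower (24.8% of all genes). These counts were 6 and 0 in mice 1 and 2 alone (10% and 8.41% of all genes) and 9 and 5 in mice 3 and up alone (18.7% and 23.1%). Against control mice the median was -0.03, with 4 genes higher and 4 lower (11.4% each, against 17.4% and 22.7%). The block gave 8 and 5 (20.5% and 25.1% of all genes). In lymphomas 1 and 2 against control mice 1 and 2 the median was 0.25, with 13 higher and 1 lower (13.8% and 14.7% of all genes). Among mice 3 and up it was -0.09, with 6 and 6 (20.8% and 21.1%).

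Ndufs1, Ndufs3, Ndufs7, Ndufs8, Ndufv1 and Ndufv2, which carry the flavin and iron-sulfur centres or line the path to ubiquinone, passed in no comparison. Ndufs3 had signals of 1115 to 1369 in control mice, 780 to 1256 before transformation and 943 to 1549 in lymphomas, ranges that overlap. Its largest difference, before transformation against control, was -0.31 ± 0.12 (SE) with an adjusted p of 0.157.

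The complex I genes that rose were accessory subunits. Ndufa10 had signals of 807, 813, 843, 897 and 936 in control mice and 878, 944, 1201, 977 and 1068 before transformation. In lymphomas the lowest was 1122, the median 1320 and the highest 1813, so that lymphomas lay above every control mouse and overlapped with the mice before transformation. It was 1.62-fold higher than in control mice (log2 difference 0.70 ± 0.12 SE, limma adjusted p = 0.000407) and 1.38-fold higher than before transformation (0.46 ± 0.13, adjusted p = 0.0138). In mice 3 and up alone the second of these differences was 0.28, with an adjusted p of 0.127. A second, dimmer Ndufa10 probe set went the other way, with -0.52 and an adjusted p of 0.0295.

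Ndufab1 encodes the mitochondrial acyl carrier protein, which serves complex I and fatty acid synthesis. Its signals were 1351, 1364, 1070, 1080 and 1409 in control mice, 1108, 1456, 1137, 958 and 982 before transformation, and 1452 to 2270 in lymphomas with a median of 1563. The lymphomas lay above every control mouse, and only the highest mouse before transformation reached into their range. The gene rose by 0.57 ± 0.13 against mice before transformation (adjusted p = 0.0043) and by 0.41 ± 0.12 against control mice (adjusted p = 0.0149), but a second probe set gave -0.11 and 0.01.

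Ndufb9, an accessory subunit of the membrane arm, had signals of 1701 to 2118 in control mice, 1266 to 1876 before transformation and 1767 to 3234 in lymphomas. It rose by 0.63 ± 0.14 against mice before transformation (adjusted p = 0.00411) and by 0.38 ± 0.13 against control mice (adjusted p = 0.0305). The second of these calls was lost without any 1 of control mice 2, 3, 4 and 5, with adjusted p-values of 0.0521 to 0.0781. Ndufb8, another membrane-arm subunit, lay above every mouse before transformation, with 1924 to 2547 in lymphomas against 1482 to 1760, and rose by 0.41 ± 0.09 (adjusted p = 0.00362). A second Ndufb8 probe set, below the minimum with a mean signal of 89.5 and not tested, differed by -0.64. Ndufb2 rose by 0.51 ± 0.19 with an adjusted p of 0.047, and kept its call in 3 of 13 fits that left out 1 mouse each.

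Other accessory subunits fell. Ndufv3 lies beside the flavin site of complex I, and its signals were 2802, 2795, 2603, 2601 and 2659 in control mice. They were 2412, 2687, 2246, 2060 and 1921 before transformation and 1341 to 2045 in lymphomas, with a median of 1581. Every lymphoma was below every control mouse, and the range of the middle group overlapped with both. Ndufv3 fell by 0.76 on the log2 scale against control mice (1.69-fold, SE 0.11, adjusted p = 0.000101) and by 0.50 against mice before transformation (SE 0.13, adjusted p = 0.00757). The first call held in mice 1 and 2 alone (-0.47, adjusted p = 0.00867) and in mice 3 and up alone (-0.84).

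Ndufs4, whose loss is a known cause of complex I deficiency, differed between the number sets of lymphomas. Its signals were 1683 to 1872 in control mice and 1741, 1866, 1477, 1367 and 1277 before transformation. Lymphomas 1 and 2 had 2073 and 2011, above every control mouse, and the other 6 had 1009 to 1162, below every control mouse. Over all mice the gene was lower in lymphomas than in control mice by -0.49 ± 0.18 (adjusted p = 0.0433). In mice 3 and up the difference was -0.68 (adjusted p = 0.00021), and in mice 1 and 2 it was 0.14 (adjusted p = 0.186). A second probe set gave 0.06, and the call was kept in 2 of 13 fits without 1 mouse.

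Ndufa7 fell by 0.51 against mice before transformation (SE 0.14, adjusted p = 0.0144) and by 0.48 against control mice (SE 0.13, adjusted p = 0.00802). Here too lymphomas 1 and 2 stood apart, at 2906 and 2685 against 1725 to 2052 in the other 6. In mice 1 and 2 alone the difference from mice before transformation was 0.12, and without mouse 4 of that group the call was lost, with an adjusted p of 0.0504. Ndufa3 fell by 0.42 against control mice with an adjusted p of 0.0437, and kept that call in 4 of 13 fits without 1 mouse. The X-linked subunits Ndufa1 and Ndufb11 passed in no comparison, and their largest differences were -0.25 and -0.17, both in lymphomas against mice before transformation. Ndufa4 and its paralogue Ndufa4l2 did not pass either.

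The 8 Ndufaf genes encode assembly factors that build complex I and are not part of the finished enzyme. In lymphomas against mice before transformation 5 of 8 rose and 2 fell, and against control mice 4 rose and 1 fell. Of all genes, 16.1% and 18.5% passed as higher and lower in the first comparison and 17.4% and 22.7% in the second. The median differences were 0.63 and 0.43. No assembly factor passed between control mice and mice before transformation, where 4.43% of all genes passed as higher and 6.24% as lower. A block for the number set again gave counts for lymphomas of 5 and 2 (21.2% and 24.8% of all genes) and 4 and 1 (20.5% and 25.1%), and quantile normalization gave the same (22.8% and 15.9%, and 25.7% and 18.3%). Centring gave 5 and 1 (19.3% and 13.7%), and 4 and 1 (22% and 17.1%). Among mice 1 and 2 alone the counts were 2 and 1 (10% and 8.41%), and 3 and 1 (13.8% and 14.7%). Among mice 3 and up they were 5 and 2 (18.7% and 23.1%), and 3 and 1 (20.8% and 21.1%).

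Ndufaf6 was near the floor outside the lymphomas. Its signals were 98.9, 67.5, 92.6, 75.5 and 140 in control mice and 53.5, 60.2, 62.0, 56.3 and 67.9 before transformation, where 1 of 5 mice was at the floor of 53.5 set for low signals. In lymphomas the lowest was 116, the median 151 and the highest 221. The lymphomas lay above every mouse before transformation and above 4 of 5 control mice. All 5 mice before transformation and 4 of 5 control mice lay below the minimum of 109, so the gene was tested because of its lymphoma signals, and the sizes of its differences depend on the floor. On the floored log2 scale it was higher than before transformation by 1.39 ± 0.16 (SE, adjusted p = 2.04e-05) and than in control mice by 0.77 ± 0.19 (adjusted p = 0.00496). The first difference was 1.48 with the floor at the 10th percentile and 1.01 with it at the 30th. Its call held in every alternative and without any 1 mouse. The second was lost in mice 3 and up alone, where the difference was 0.58 and the adjusted p 0.0671. The difference of -0.62 between mice before transformation and control mice had an adjusted p of 0.0554.

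Ndufaf4 acts early in assembly and had signals of 396, 389, 328, 306 and 305 in control mice and 326, 442, 418, 360 and 316 before transformation. Lymphomas ranged from 459 to 1276 with a median of 519, above every other mouse, and lymphomas 1 and 2 had 1276 and 957. The gene rose by 0.83 ± 0.23 against control mice (adjusted p = 0.0106) and by 0.72 ± 0.24 against mice before transformation (adjusted p = 0.0282). These differences were 1.49 and 1.54 in mice 1 and 2 alone, and in mice 3 and up 0.68 and 0.46, each with an adjusted p under the threshold. Against mice before transformation the call was lost without mouse 1, 4 or 5 of that group, with adjusted p-values of 0.0656, 0.0595 and 0.0721.

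Ndufaf2, a chaperone of late assembly, had signals of 174 to 285 in control mice, 179 to 343 before transformation and 315 to 581 in lymphomas. It rose by 0.67 ± 0.18 against control mice (adjusted p = 0.00711), with every lymphoma above every control mouse, and by 0.66 ± 0.19 against mice before transformation (adjusted p = 0.0149). Ndufaf5, which modifies an arginine of Ndufs7, rose by 0.71 ± 0.20 (adjusted p = 0.0119) and by 0.56 ± 0.17 against control mice (adjusted p = 0.0194). The latter call was lost without control mouse 3, with an adjusted p of 0.0634. Ndufaf1 rose by 0.60 ± 0.16 against mice before transformation (adjusted p = 0.0112), and its difference from control mice, 0.31, had an adjusted p of 0.183.

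Ndufaf3 and Ndufaf8 went the other way. Ndufaf3, a partner of Ndufaf4, had signals of 539, 538, 434, 469 and 491 in control mice and 596, 675, 435, 428 and 476 before transformation. In lymphomas they were 264 to 380 with a median of 303, below every other mouse. It fell by 0.71 against mice before transformation (SE 0.15, adjusted p = 0.00224) and by 0.65 against control mice (SE 0.12, adjusted p = 0.000817), and both calls held in every alternative and without any 1 mouse.

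Ndufaf8, a partner of Ndufaf5, had signals of 1319 to 2617 before transformation and 273 to 1250 in lymphomas, with lymphoma 3 far below the other 7, whose lowest was 875. The difference was -0.95 ± 0.31 with an adjusted p of 0.0261. The call was lost without mouse 4 or 5 of the group before transformation, with adjusted p-values of 0.0832 and 0.057, and a dimmer second probe set gave 0.27. Against control mice the difference was -0.71 with an adjusted p of 0.0614. Ndufaf7, the remaining factor, passed in no comparison.

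**Figure D3:**
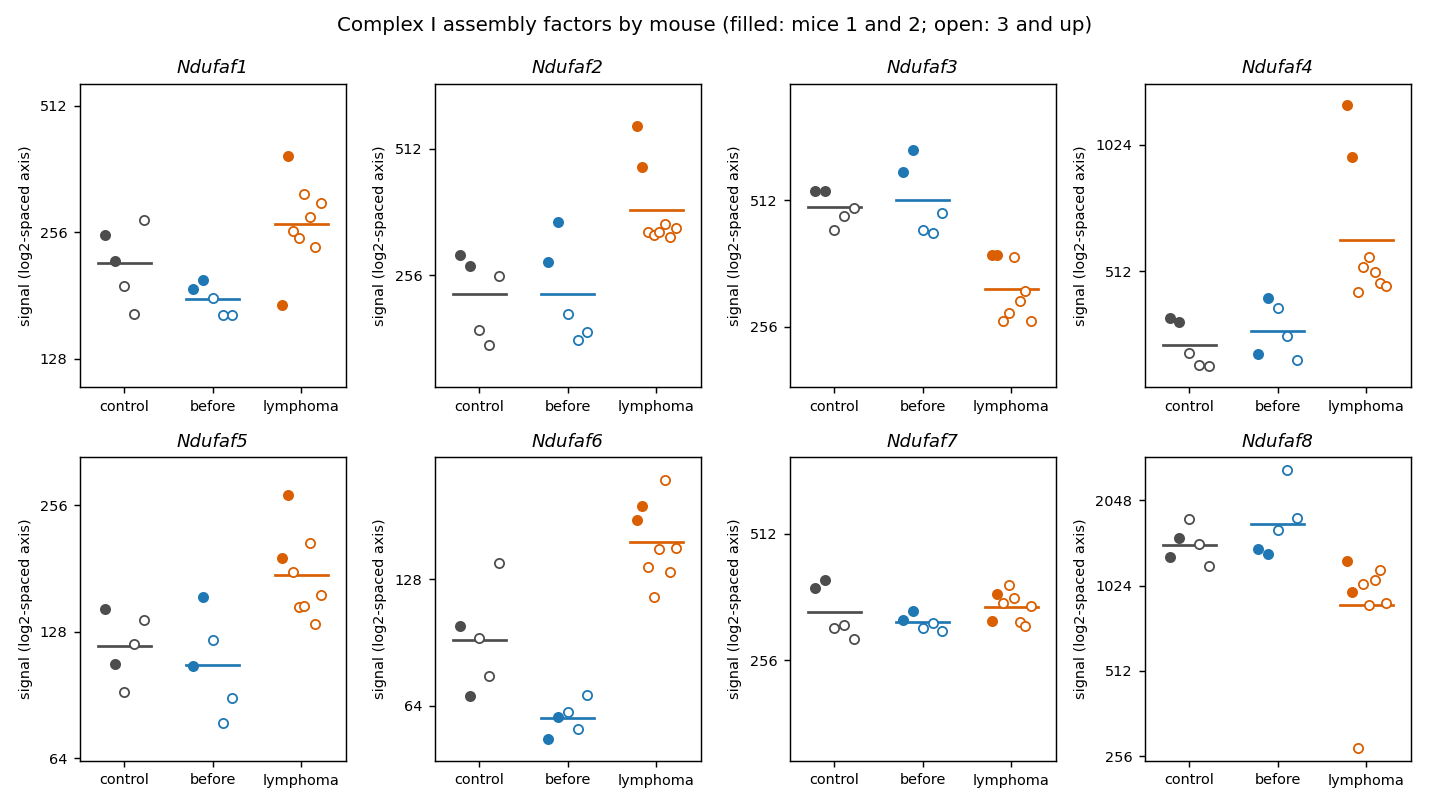
Signal of the 8 complex I assembly factors in each mouse of the 3 groups (before: CD4Cre-Ctnnbex3 mice before transformation) on log2-spaced vertical axes; filled points are mice numbered 1 and 2, open points are mice numbered 3 and up, and lines are means of log2 signal. Ndufaf4 in lymphomas lies above, and Ndufaf3 below, every mouse of the other groups.

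Complex II, succinate dehydrogenase, links the citric acid cycle to the chain and has 4 subunits, all nuclear. Sdhb, which carries its iron-sulfur clusters, had signals of 2602, 2470, 2448, 2429 and 2566 in control mice and 2084, 2302, 2270, 1940 and 1835 before transformation, so that the groups did not overlap. It fell by 0.27 on the log2 scale (1.2-fold, SE 0.08, adjusted p = 0.0418), near the threshold, and kept the call in 2 of 10 fits without 1 mouse. The difference was -0.21 in mice 1 and 2 alone and -0.31 in mice 3 and up, neither of which passed. The lymphomas split, with 2847 and 3016 in numbers 1 and 2 and 1693 to 2301 in the others, and their difference from the mice before transformation was 0.01. Against control mice the difference was 0.21 in mice 1 and 2 (adjusted p = 0.0874) and -0.41 in mice 3 and up (adjusted p = 0.0105).

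Sdha, the flavoprotein that oxidises succinate, had signals of 1663 to 1811 in control mice, 1241 to 1760 before transformation and 1221 to 1750 in lymphomas. The lymphomas were lower than control mice by -0.23 ± 0.09 (adjusted p = 0.0463), a call kept in 3 of 13 fits without 1 mouse. Sdhc, a membrane anchor, passed in no comparison. Sdhd, the other anchor, had signals of 1491, 1701, 1619, 2227 and 1881 before transformation and 1089 to 1417 in lymphomas with a median of 1239, with no overlap. It fell by 0.52 (1.43-fold, SE 0.11, adjusted p = 0.0023). A second Sdhd probe set, with a mean signal of 376, rose by 0.78 with an adjusted p of 0.000286, so the 2 probe sets of this gene disagree in direction, and which of them follows the transcript was not tested.

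Complex III, the cytochrome bc1 complex, passes electrons from ubiquinol to cytochrome c. None of its 8 genes passed in any comparison. The median differences were -0.09, 0.10 and 0.04 in mice before transformation against control, lymphomas against those mice and lymphomas against control. In the same order the medians of all genes were -0.02, -0.03 and -0.03. Of all genes, 4.43%, 16.1% and 17.4% passed as higher and 6.24%, 18.5% and 22.7% as lower. The core proteins Uqcrc1 and Uqcrc2 and the Rieske protein Uqcrfs1 differed by at most 0.19 in either direction. The small subunits varied more within groups. Uqcr11 had 1426 and 1703 in lymphomas 1 and 2 and 612 to 1252 in the others, and its difference from mice before transformation was 0.62 with a 95% interval of 0.03 to 1.2 and an adjusted p of 0.0945. Uqcrq had a difference of 0.49 against control mice with an adjusted p of 0.0514, and Uqcrb one of -0.38 against mice before transformation with an adjusted p of 0.127. In lymphomas against mice before transformation a block for the number set called 3 higher (21.2% of all genes) and 1 lower (24.8%), and quantile normalization called 4 higher (22.8%) and 0 lower (15.9%).

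Complex IV, cytochrome c oxidase, reduces oxygen to water, and its nuclear subunits surround a core encoded in mitochondrial DNA. The nuclear subunits Cox4i1 and Cox5a, which join the core early in assembly, moved in opposite directions. Cox5a had signals of 3305, 3110, 3064, 3365 and 3397 in control mice, 2854, 2922, 3288, 2635 and 2915 before transformation, and 3456 to 4099 in lymphomas with a median of 3815. Every lymphoma was above every other mouse. It was 1.31-fold higher than before transformation (0.39 ± 0.07 SE, adjusted p = 0.00105) and 1.18-fold higher than in control mice (0.23 ± 0.06, adjusted p = 0.00747), and both differences passed within each number set. A second probe set gave 0.20 and 0.07, with adjusted p-values of 0.0933 and 0.491.

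Cox4i1 had signals of 5376, 5211, 4871, 4876 and 4752 in control mice, 5421, 5228, 4555, 5237 and 5487 before transformation, and 3716 to 5221 in lymphomas with a median of 4193. It fell by 0.29 against mice before transformation (SE 0.09, adjusted p = 0.0193) and by 0.24 against control mice (SE 0.08, adjusted p = 0.0257). Neither call held under quantile normalization, where the differences were -0.05 and -0.10, or with centring, where they were -0.20 and -0.15. The first was lost without mouse 5 of the group before transformation (adjusted p = 0.0536) and the second without control mouse 1 or 2 (0.0696 and 0.0618).

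Cox6c was higher in lymphomas than in control mice by 0.37 ± 0.10 (adjusted p = 0.0098), with 3927 to 5974 against 3487 to 3908 and no overlap. Cox6a2, an isoform known from heart and muscle, rose by 0.45 ± 0.16 against control mice (adjusted p = 0.0372) at signals of 121 to 262 over both groups, and kept the call in 5 of 13 fits without 1 mouse. The isoforms Cox4i2, Cox6a1, Cox6b1, Cox7a2, Cox7a2l, Cox8a and Cox8c, and Cox5b, passed in no comparison. Cox7c did not overlap between control mice (222 to 323) and mice before transformation (339 to 362), but its difference of 0.38 had an adjusted p of 0.0758. Among the isoforms that did not exceed the minimum signal on 5 arrays, Cox6b2, known from testis, had signals of 99.7 to 177 in control mice. Before transformation 4 of 5 mice were at the floor, as were 5 of 8 lymphomas, and it was not tested. Cox8b and Cox7b2 were at the floor in all 5 control mice.

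ATP synthase joins a proton-driven rotor in the membrane to a catalytic head. The catalytic beta subunit Atp5b and its partners Atp5a1 and Atp5c1 passed in no comparison, and the signals of Atp5b were 5312 to 5895 in control mice, 5265 to 6523 before transformation and 5153 to 5755 in lymphomas. Atp5h, subunit d of the stalk that holds the head still, was highest in mice before transformation. Its signals were 4771, 4763, 3892, 3801 and 4543 in control mice and 7271, 7442, 5128, 6118 and 6219 before transformation, with no overlap. In lymphomas they were 3119 to 4734 with a median of 3707, below every mouse before transformation and overlapping with control mice.

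Atp5h was 1.47-fold higher before transformation than in control mice (0.56 ± 0.11 SE, adjusted p = 0.00615). It was 1.65-fold lower in lymphomas than before transformation (-0.72 ± 0.12, adjusted p = 0.000349). Both calls held in every alternative, in each number set alone and without any 1 mouse. Lymphomas and control mice differed by -0.16, with a 95% interval of -0.39 to 0.06 and an adjusted p of 0.239. Atp5l, subunit g, was higher before transformation than in control mice by 0.26 ± 0.08 with an adjusted p of 0.0495, and the call was kept in 2 of 10 fits without 1 mouse. It was also higher in lymphomas than in control mice by 0.24 ± 0.09 (adjusted p = 0.0475), a call kept in 5 of 13 such fits.

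The c subunit, which forms the rotor ring that carries protons, is encoded by Atp5g1, Atp5g2 and Atp5g3. The 3 genes give the same mature protein from different precursors, and their promoters are printed above. Atp5g1 had signals of 1035, 1020, 685, 696 and 769 in control mice, 784, 1021, 726, 455 and 513 before transformation, and 873 to 1664 in lymphomas with a median of 1245. In each group mice 1 and 2 held the highest value, and the lymphoma and control ranges overlapped. Atp5g1 was 1.89-fold higher in lymphomas than before transformation (0.92 ± 0.20 SE, adjusted p = 0.00332) and 1.53-fold higher than in control mice (0.62 ± 0.17, adjusted p = 0.00947). Both calls held in the 12 alternatives run, in each number set alone and without any 1 mouse. Its second probe set was at the floor on every array and was not tested.

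Atp5g2 had signals of 2848, 2891, 1989, 2102 and 2271 in control mice, 2690, 2994, 2246, 1513 and 1475 before transformation, and 2644 to 4447 in lymphomas with a median of 3440. It rose by 0.70 ± 0.18 (adjusted p = 0.0091) and by 0.51 ± 0.14 against control mice (adjusted p = 0.00876), and a second probe set gave 0.38 in both, with adjusted p-values of 0.176 and 0.16. Atp5g3 did not follow. Its signals were 6251, 6193, 5975, 5918 and 6175 in control mice, 6476, 6326, 5280, 6167 and 5635 before transformation, and 5028 to 5827 in lymphomas with a median of 5401. It was 1.13-fold lower in lymphomas than in control mice (-0.18 ± 0.05, adjusted p = 0.0118), with no overlap, and this call was lost under quantile normalization, at -0.06, and with centring, at -0.09. Against mice before transformation it differed by -0.15 with an adjusted p of 0.104.

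Atp5k, subunit e, fell by 0.32 in lymphomas against mice before transformation (SE 0.09, adjusted p = 0.0115), a call that was lost under quantile normalization at -0.13 and with centring at -0.24. The other ATP synthase genes passed in no comparison.

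**Figure D4:**
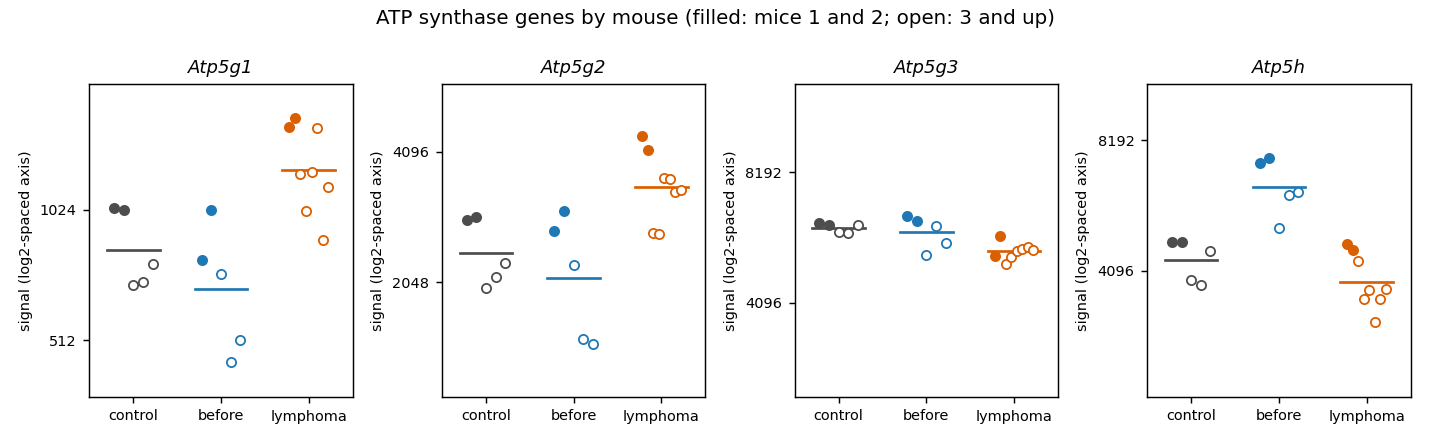
Signal of the c-subunit genes Atp5g1, Atp5g2 and Atp5g3 and of the stalk subunit Atp5h in each mouse (before: CD4Cre-Ctnnbex3 mice before transformation) on log2-spaced vertical axes; filled points are mice numbered 1 and 2, open points are mice numbered 3 and up, and lines are means of log2 signal. Atp5h is highest before transformation, and in lymphomas Atp5g1 and Atp5g2 are higher and Atp5g3 is lower than in control mice.

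Other genes of the pathway were counted from lists of carriers, assembly factors, regulators, nucleotide exchange and the mitochondrial ribosome. The ribosome list, which makes the subunits encoded in mitochondrial DNA, had 35 of 76 genes higher and 4 lower in lymphomas against mice before transformation. Its median difference was 0.39, against -0.03 for all genes. Of the list 46.1% was higher, against 16.1% of all genes, and 5.26% was lower, against 18.5%. Mrpl28 (0.52 ± 0.09, adjusted p = 0.000732), Mrpl36 (0.73 ± 0.13, adjusted p = 0.000791) and Mrpl16 (0.92 ± 0.17, adjusted p = 0.00107) had the smallest adjusted p-values. Against control mice 22 of 76 were higher (28.9%, against 17.4% of all genes) and 3 lower (3.95%, against 22.7%). Before transformation 0 were higher (4.43% of all genes) and 4 lower (5.26%, against 6.24%), so the share that fell was near the background. Mrps12 was among these 4, with -0.62 ± 0.12 (adjusted p = 0.00678). With the number set as a block the share higher was 68.4% against mice before transformation (21.2% of all genes) and 56.6% against control mice (20.5%). With centring it was 30.3% (19.3% of all genes) and 21.1% (22%), so against control mice it was then near the share of all genes. In mice 1 and 2 alone 29 and 43 of 76 were higher, in the same order (10% and 13.8% of all genes). In mice 3 and up 38 and 23 were higher (18.7% and 20.8%).

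Assembly factors outside the Ndufaf family changed in both directions in lymphomas against mice before transformation, with 7 of 24 higher (29.2%, against 16.1% of all genes) and 3 lower (12.5%, against 18.5%). In mice 1 and 2 alone the counts were 6 and 1 (10% and 8.41% of all genes), and in mice 3 and up 9 and 4 (18.7% and 23.1%). Sco2, which delivers copper to complex IV, rose by 1.11 ± 0.17 (adjusted p = 0.000204), with 208 to 417 in lymphomas and 111 to 198 before transformation. Cox20, a chaperone of the mitochondrial subunit Cox2, fell by 0.94 (SE 0.19, adjusted p = 0.00167), and Atpaf1, which assembles the ATP synthase head, fell by 0.56 (SE 0.13, adjusted p = 0.00491). Of the carriers and entry points 5 of 16 rose (31.2%, against 16.1% of all genes) and 0 fell (18.5% of all genes). The counts were 6 and 0 in mice 1 and 2 (10% and 8.41% of all genes) and 5 and 0 in mice 3 and up (18.7% and 23.1%). The genes that rose were Etfb and 4 others. These 4 were the ubiquinone synthesis genes Coq2, Coq3 and Coq7 and the ubiquinone-linked enzyme Dhodh. Coq3 had a median of 103 in control mice and 89.7 before transformation, both below the minimum signal, and 129 to 250 in lymphomas. Like Ndufaf6, Coq3 was tested because of its lymphoma signals, so its rise does not carry the same weight. Coq7 rose by 0.99 ± 0.19 (adjusted p = 0.00111). The electron carrier genes Cycs and Cyc1 passed in no comparison. Gpd2, the mitochondrial glycerol phosphate dehydrogenase, was higher before transformation, with 920 to 1002 against 649 to 679 in control mice (0.54 ± 0.07, adjusted p = 0.000239).

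The phosphate carrier Slc25a3 and the ADP/ATP carrier Slc25a4 fell before transformation and rose in lymphomas. Slc25a3 had 4594 to 4736 in control mice, 3473 to 4349 before transformation and 4737 to 5243 in lymphomas, and its differences were -0.27 ± 0.06 (adjusted p = 0.0176) and 0.39 ± 0.07 (adjusted p = 0.000523). Slc25a4 differed by -0.30 (adjusted p = 0.0413) and 0.59 (adjusted p = 0.00103). These comparisons share the mice before transformation. The ATP synthase inhibitor Atpif1 passed in none.

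Among regulators in lymphomas against mice before transformation, 4 of 16 rose (25%, against 16.1% of all genes) and 5 fell (31.2%, against 18.5%). These counts were 4 and 2 in mice 1 and 2 alone (10% and 8.41% of all genes) and 4 and 5 in mice 3 and up (18.7% and 23.1%). Myc, a general driver of growth genes, had signals of 1250 to 2489 in lymphomas, 132 to 517 before transformation and 437 to 488 in control mice. It rose by 3.02 ± 0.26 (adjusted p = 2.6e-06). Pprc1, a growth-linked coactivator of the PGC-1 family, rose by 1.24 ± 0.12 (adjusted p = 5.6e-06). Nrf1, whose protein binds the NRF1 motif above, fell by 0.79 (SE 0.15, adjusted p = 0.00119), and Polg, the mitochondrial DNA polymerase, fell by 0.66 (adjusted p = 0.00174). Tfam, which packages mitochondrial DNA, passed in no comparison. None of the 13 subunits encoded in mitochondrial DNA had a listed probe set, so they are not analysed here.

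**Figure D5:**
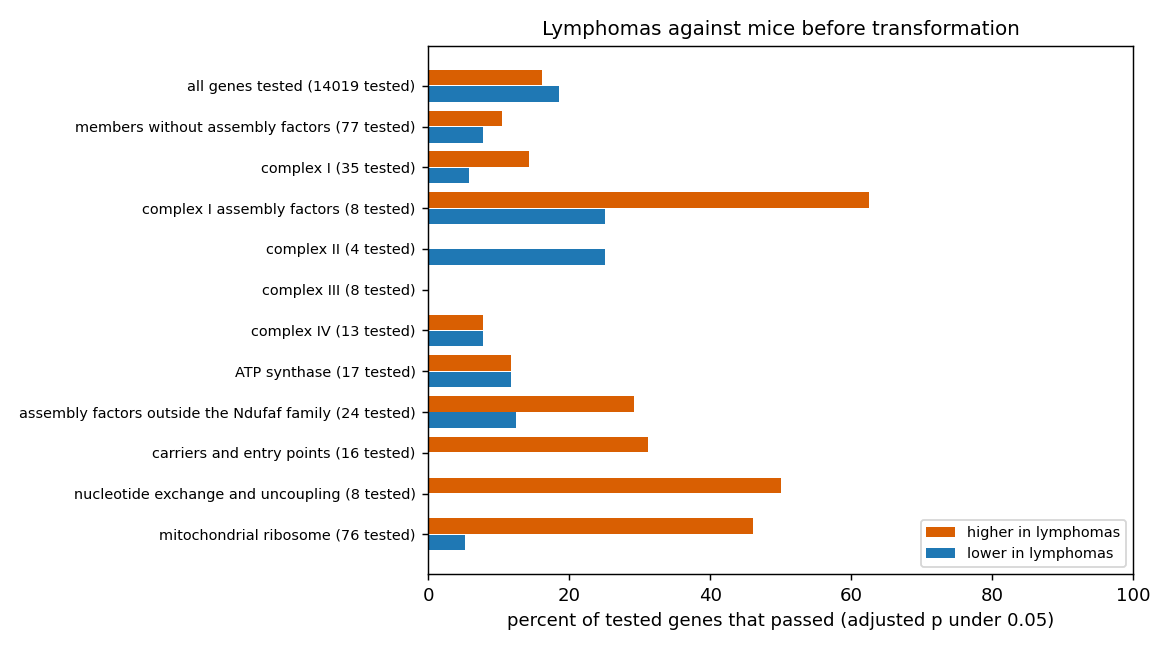
Percent of tested genes that passed as higher (orange) or lower (blue) in lymphomas against CD4Cre-Ctnnbex3 mice before transformation, for all genes tested, the complexes and other lists of the pathway; the number tested is beside each name. The subunit bars lie near or below the 16.1% and 18.5% of all genes for most complexes, and the mitochondrial ribosome reaches 46.1% higher.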

How the data were processed

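Affymetrix mouse 430 arrays measured thymocytes or tumour masses, with 1 mouse on each of the 18. The deposited values are probe-set intensity on a linear scale, which the authors made with dChip, as the design text states; the sources used here give no version, expression model or scaling. Of 811818 values 1.2% were blank, none of them in the member probe sets used. Blank and low values were set to the 20th percentile, an intensity of 53.5, and log2 was taken. The deposited scaling was kept, since array medians (125 to 166) differed by 0.41 on the log2 scale. Each gene was represented by the probe set of highest mean over all arrays, among the 34958 with 1 gene symbol in the platform annotation (932 had several and 9211 had none). Genes above the 40th percentile on at least 5 arrays (14019) were compared between each pair of groups with limma 3.58.1 (lmFit, and eBayes with an intensity trend) in R 4.3.3, with Benjamini-Hochberg adjustment over all of them and a threshold of 0.05. The code was tested on simulated data.

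The members and gene lists were chosen with earlier results of these data known. Named were, per complex and comparison, up to 3 passing members with the largest rise and 3 with the largest fall, the core subunits, isoform pairs, X-linked subunits, and up to 3 genes per list of the pathway by adjusted p. All assembly factors, Ndufb8, Ndufb2, Uqcr11, Uqcrq, Uqcrb, Cox7c, Coq3, Dhodh, Cycs, Cyc1 and Tfam were named beyond that after their values were seen. Alternatives were scaling, floor, blanks, filter, second probe set, all groups in 1 fit, no trend, blocks for mouse number and number set, each number set alone, and leaving out each mouse. Levels of the number sets under other scaling, and the pathway lists under the alternatives, were added after seeing the data. The number of arrays limits the precision.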

Additional observations from a re-analysis of the deposited data

Results flagged for a closer look

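In 8 of 267 groups of a member's signals (3%), 1 mouse stood far from the rest of its group by Dixon's criterion, which chance meets in about 1 in 20 groups. Among lymphomas, Ndufaf8 was 273 in lymphoma 3 and 875 to 1250 in the other 7, Ndufs5 was 473 in lymphoma 6 and 855 to 1051 in the others, and Ndufa4l2 was 194 in lymphoma 2 and 252 to 297 in the others. Before transformation, Cox4i1 was 4555 in mouse 3 and 5228 to 5487 in the other 4, and Ndufb11 was 2665 in mouse 2 and 2472 to 2509 in the others. The remaining flags lie near the floor of 53.5, also before transformation: Cox6b2 was 76.2 in mouse 1 with the others at the floor, Cox7b2 was 60.2 in mouse 3 with the others at 53.5 to 54.3, and Cox8b was 73.1 in mouse 1 with the others at 53.5 to 56.7.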

How the results depend on the processing

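Over the member calls, 499 values under other settings kept direction and call, 86 lost the call and 8 reversed, and of the fits without 1 mouse 500 kept the call, 89 lost it and 0 reversed. Atp5h (before transformation against control, and lymphoma against before), Atp5g1 and Ndufaf3 (both lymphoma comparisons), Ndufaf6 and Ndufb8 (lymphoma against before), and Ndufaf2, Ndufaf4 and Ndufv3 (lymphoma against control) kept theirs in every setting run. Ndufaf6 was tested because of its lymphoma signals, so its kept call does not carry the same weight. For Atp5g1 and Ndufb8 the second probe set was below the minimum and gave no test; that of Ndufb8 differed by -0.64 in lymphoma against before. The cause of the changes below was not tested.

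Before transformation against control, members higher were 1 under quantile normalization, centring, a floor at the 10th percentile, blanks left missing, no filter, all 3 groups in 1 fit, no trend and mice 3 and up, against 2. Members lower, against 1, were 0 with centring, all 3 groups in 1 fit and mice 1 and 2, 2 with no filter and with the replicate block, 6 with the number set as a block and 5 in mice 3 and up. In lymphoma against before, members higher were 30 under quantile normalization, 22 with the replicate block, 29 with the number set as a block and 20 in mice 3 and up, against 13. Members lower were 3 with centring, 2 in mice 1 and 2 and 13 in mice 3 and up, against 8. In lymphoma against control, members higher were 7 with second probe sets, 22 with the number set as a block and 31 in mice 1 and 2, against 14. Members lower were 3 under quantile normalization, 2 with centring, 4 without the trend, 2 in mice 1 and 2 and 16 in mice 3 and up, against 8. Without 1 mouse each, the counts of higher and lower were 1 to 2 and 0 to 4, 11 to 16 and 6 to 11, and 9 to 16 and 4 to 13, in the order of the comparisons above.

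Second probe sets reversed Ndufa10 (-0.52 in lymphoma against before and -0.28 against control), Ndufab1 (-0.11), Ndufaf8 (0.27) and Sdhd (0.78) in lymphoma against before, and Ndufs4 (0.056) in lymphoma against control. In mice 1 and 2 alone Ndufa7 (0.12, lymphoma against before) and Ndufs4 (0.14, lymphoma against control) reversed. Of the 51 members with a second probe set, those called had the same sign in 8 of 14 in lymphoma against before and 9 of 14 in lymphoma against control. Both counts score Atp5g1, whose second probe set was at the floor on every array, as not the same. They also include second probe sets below the minimum, of Ndufb8 in both and of Cox6a2 (mean signal 57) against control. The mice share only a number in the labels, so the replicate block is no pairing that the labels state. Deviations of same-numbered mice from their group means correlated between -0.14 and 0.38, 0.08 and 0.40, and -0.07 and 0.27. These correlations cannot show whether the mice were paired.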
